A study of Homo sapiens with 6 samples.

Results

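The 9 enzymes described here carry out successive steps of the tricarboxylic acid (TCA) cycle: CS, IDH3A, IDH2, OGDH, SUCLG1, SDHA, SDHB, FH and MDH2. They were taken from a fixed list of gene symbols and matched to the Ensembl identifiers of the count table through GENCODE release 44 by name and with no threshold on a measured value, although earlier results of these data were known when the list was made. They are 9 of the 63241 genes listed. The cells were HT-1376, a permanent line grown from a human bladder carcinoma, and they stood for that line alone. In the siSHMT2 group (labelled SHMT2 knockdown) they received an siRNA against SHMT2, the mitochondrial serine hydroxymethyltransferase, and in the siNC group a non-targeting siRNA, with Lipofectamine 2000 in both, and RNA was taken a day later. Each group had 3 RNA-seq libraries. The siRNA used was 1 sequence, so effects of SHMT2 loss and of that sequence on other transcripts cannot be told apart.

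The TCA cycle burns the acetyl group of acetyl-CoA to carbon dioxide in the mitochondrial matrix and passes the electrons to NADH and to the quinone of the respiratory chain. Its intermediates are also drawn off as building blocks for fatty acids, amino acids and nucleotides, which matters in dividing tumour cells. SHMT2 works in the same compartment, where it turns serine into glycine and a folate-bound carbon unit, and the comparison asked whether transcripts of the cycle differed once SHMT2 was silenced.

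The libraries held 533689 to 890574 counts on genes in the count table. The paper reports far more sequenced reads per sample than that, and the reason for the gap was not tested. SHMT2 itself was lower in every siSHMT2 library than in any siNC library, with 7.75 ± 1.97 FPKM (counts scaled to gene length and to the library total; SD, n = 3) in siNC and 2.48 ± 2.19 FPKM in siSHMT2, and a log2 fold change of -1.78 (SE 0.48; edgeR quasi-likelihood test, unadjusted p = 5.58e-04, adjusted p = 0.932). Of 14 urothelial and epithelial markers 12 had counts, of which UPK2 had 1 count in all, and UPK1A and UPK3A were at 0. KRT8 with 13773 and KRT18 with 5544 held most of the 23994 counts of the 14 markers. The summed level of these markers was 5307 to 5694 CPM (counts scaled to the library total) in siNC and 5242 to 5759 CPM in siSHMT2, against at most 11.6 CPM for the leukocyte, endothelial or fibroblast and muscle markers.

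None of the 9 enzymes was called in the comparison of siSHMT2 with siNC. Together they took 1068 of the 4536490 counts of the 6 libraries, and each enzyme had between 3 and 56 counts in a library. CS, IDH2, OGDH, SUCLG1, FH and MDH2 passed the count filter and were tested among 7207 genes, while IDH3A, SDHA and SDHB were below it. Of the 6 enzymes tested, 0 had an adjusted p under 0.05 and 0 had an unadjusted p under 0.05. Over all genes tested, edgeR called 0 genes (0%) at an adjusted p under 0.05 and 277 genes (3.84%) at an unadjusted p under 0.05. DESeq2 called 0 and 117 genes at these thresholds, and limma on log2 FPKM called 0 genes at the adjusted threshold and 318 or 306 at the unadjusted one, by pseudocount. Among the 6 enzymes 4 had a positive and 2 a negative log2 fold change, with a median of 0.05, against a median of -0.001 over all genes tested. The median size of the log2 fold change, sign set aside, was 0.15 for these enzymes and 0.18 for all genes tested.

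The summed transcripts of the 9 enzymes differed by less than the spread between libraries. They came to 258.9, 213.8 and 260.1 CPM in the siNC libraries and to 258.2, 241.1 and 230.7 CPM in the siSHMT2 libraries. The group means were 244 ± 26.4 and 243 ± 13.9 CPM (SD, n = 3), and the groups overlapped. In bulk RNA, a change in the number of cells that express a gene and a change in RNA per cell cannot be told apart.

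**Figure D1:**
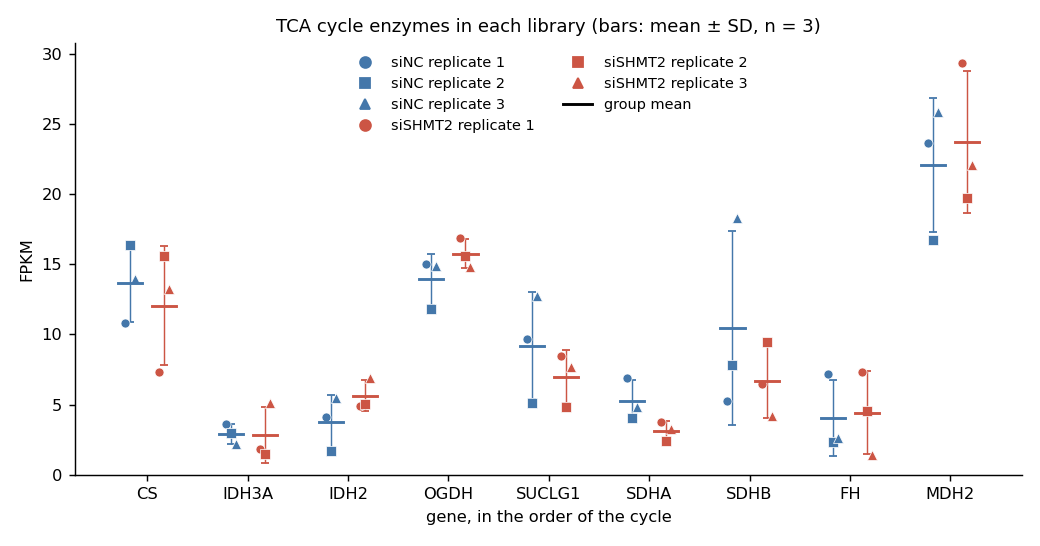
FPKM of the 9 enzymes (vertical axis) in the order of the cycle (horizontal axis), with 1 point per library, siNC in blue and siSHMT2 in red; horizontal lines are group means and error bars are SD over 3 libraries. The points of both groups overlap for every enzyme except SDHA, and MDH2, OGDH and CS lie highest in both groups.

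The cycle opens with citrate synthase, CS (ENSG00000062485, chr12:56271699-56300391, minus strand, GRCh38), which joins acetyl-CoA to oxaloacetate. CS had 10.8, 16.3 and 14.0 FPKM in the siNC libraries and 7.36, 15.6 and 13.2 FPKM in the siSHMT2 libraries. Replicate 1 was the lowest library of both groups, and the other siSHMT2 libraries lay within the siNC range. The means were 13.7 ± 2.78 and 12.1 ± 4.24 FPKM (SD, n = 3), with a log2 fold change of -0.13 (95% interval -0.71 to 0.46; adjusted p = 0.999). CS has an intronless copy elsewhere in the genome, the processed pseudogene CSP2 (chr3:107327830-107329197, minus strand), which is 87.4% identical to it over 1361 bases. CSP2 had 184 counts in all, against 182 for CS itself. Reads that match both places cannot be assigned with certainty. How many reads did so was not measured, so how far the level of CS is affected cannot be told. A protein-coding model on the same strand, ENSG00000144785, also shares 201 of the 1432 coding bases of CS, or 14.0%, and was listed with 0 counts. Whether reads in those shared exons were kept for CS cannot be told. With the counts of CSP2 added, CS had 62, 68 and 71 counts in siNC and 31, 68 and 66 counts in siSHMT2, and the siSHMT2 mean in CPM was 0.856 of the siNC mean, against 0.879 for CS alone.

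The next oxidation, from isocitrate to 2-oxoglutarate, is done by an NAD-dependent enzyme of which IDH3A is the catalytic subunit and by the separate NADP-dependent enzyme IDH2. IDH3A (ENSG00000166411, chr15:78131498-78171945, plus strand) was the lowest of the 9 enzymes in both groups. It had 12, 8 and 8 counts in siNC and 4, 5 and 17 counts in siSHMT2, which correspond to 3.59, 2.97 and 2.2 FPKM and to 1.84, 1.50 and 5.11 FPKM. Replicate 3 of siSHMT2 was above every siNC library and the other siSHMT2 libraries were below every one, so the means of 2.92 ± 0.70 and 2.81 ± 2.00 FPKM (SD, n = 3) hid a spread that was wider in siSHMT2. In the fit without the count filter the log2 fold change was -0.005 (95% interval -1.05 to 1.04).

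IDH3A lies against another gene on the opposite strand, ACSBG1 (chr15:78167468-78245688, minus strand), which encodes a long-chain acyl-CoA synthetase. Their exons share 2608 bases in 1 stretch, chr15:78168922-78171529, which is 38.2% of the exonic bases of IDH3A and holds 81 of its coding bases. ACSBG1 had 1063, 1070 and 1257 counts in siNC and 685, 1186 and 1173 counts in siSHMT2. It had 6434 counts in all against 54 for IDH3A, a ratio that ran from 69.0 to 237.2 over the libraries. The library kit keeps the strand, but the strand setting of the counting is not given in the sources used here. Which of these genes the reads in the shared stretch came from therefore cannot be told apart, and the level of IDH3A beside other genes is uncertain. Among the other members, CS shares 28 exonic bases, all of them coding in CS, with the opposite-strand gene CNPY2-AS1. CNPY2-AS1 had 252 to 466 counts in each library, and 2342 in all against 182 for CS. SUCLG1 shares 269 bases with an opposite-strand lncRNA that had 1 count. IDH2, OGDH, SDHA, SDHB, FH and MDH2 share no exonic base with the opposite strand in this annotation.

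**Figure D2:**
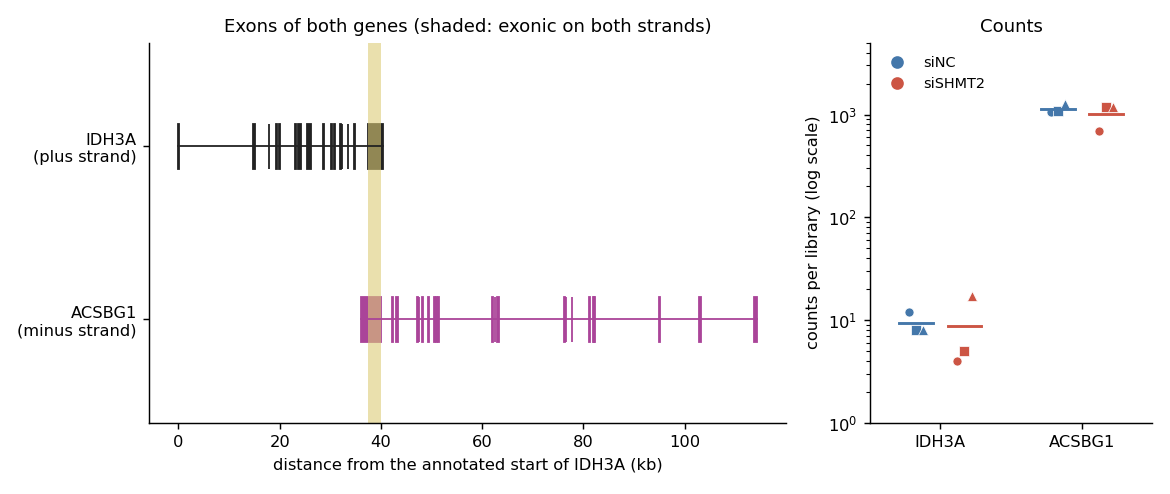
Left, exons of IDH3A and ACSBG1 by distance from the annotated start of IDH3A in kb, with the stretch that is exonic on both strands shaded; right, counts per library on a log axis, with 1 point per library and lines at the group means. The shared stretch covers the 3′ end of IDH3A, and ACSBG1 had 69.0 to 237.2 times as many counts as IDH3A in each library.

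IDH2 (ENSG00000182054, chr15:90083045-90102477, minus strand) had 4.14, 1.71 and 5.49 FPKM in siNC and 4.94, 5.05 and 6.92 FPKM in siSHMT2. A siNC library was the lowest and a siSHMT2 library the highest, and the groups overlapped. The means were 3.78 ± 1.92 and 5.64 ± 1.12 FPKM (SD, n = 3). The log2 fold change of 0.55 was the largest positive value among the 6 enzymes tested, with a 95% interval of -0.42 to 1.51 (adjusted p = 0.999). IDH2 had 58 counts in all. IDH2 exceeded IDH3A per length in 5 of 6 libraries, with a median ratio of 1.93 and a range of 0.576 to 3.38.

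IDH3A was also low beside the regulatory subunits of its own complex, with the limit that its level is uncertain through the stretch shared with ACSBG1. The ratio of IDH3A to IDH3B in FPKM ran from 0.0684 to 0.259 and that of IDH3A to IDH3G from 0.0655 to 0.419, so the catalytic subunit was below both in 6 of 6 libraries. IDH3B and IDH3G had log2 fold changes of 0.03 (SE 0.29) and 0.48 (SE 0.36).

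The 2-oxoglutarate dehydrogenase complex makes succinyl-CoA, and OGDH (ENSG00000105953, chr7:44606572-44709066, plus strand) is the subunit that decarboxylates the substrate. OGDH had 15.1, 11.8 and 14.9 FPKM in siNC and 16.9, 15.6 and 14.8 FPKM in siSHMT2. Replicate 3 of siSHMT2 fell inside the siNC range and the other siSHMT2 libraries lay just above it. The means were 13.9 ± 1.82 and 15.8 ± 1.03 FPKM (SD, n = 3). With 284 counts OGDH was the most deeply counted of the 9 enzymes, and its log2 fold change of 0.17 had the narrowest 95% interval, -0.28 to 0.62 (adjusted p = 0.999). OGDH exceeded DLST, the transferase core of the complex, in 6 of 6 libraries, with a median FPKM ratio of 2.15. DLD, the dehydrogenase that this complex shares with pyruvate dehydrogenase and others, had 6.57, 5.14 and 6.67 FPKM in siNC and 9.01, 10.4 and 10.8 FPKM in siSHMT2. All siSHMT2 libraries were above all siNC libraries, and the log2 fold change was 0.72 (SE 0.32; unadjusted p = 0.0297, adjusted p = 0.999), so DLD was not called. DLD shares 300 of its exonic bases, or 5.88%, with LAMB1 on the opposite strand, which had 441 counts against 130 for DLD.

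Succinyl-CoA ligase splits succinyl-CoA and makes GTP or ATP, and SUCLG1 (ENSG00000163541, chr2:84423528-84460045, minus strand) is the subunit common to both forms. SUCLG1 had 9.70, 5.15 and 12.7 FPKM in siNC and 8.49, 4.84 and 7.65 FPKM in siSHMT2. Replicate 2 was the lowest in both groups and the groups overlapped. The means were 9.19 ± 3.81 and 6.99 ± 1.91 FPKM (SD, n = 3), and the log2 fold change of -0.44 had a 95% interval of -1.36 to 0.48 (adjusted p = 0.999). SUCLG2, the partner that gives the enzyme its preference for GTP, had 17.3 ± 2.90 FPKM in siNC and 13.7 ± 0.27 FPKM in siSHMT2 (SD, n = 3). The SUCLG2 groups did not overlap, but the log2 fold change was -0.33 (SE 0.28) with an unadjusted p of 0.256 in edgeR. SUCLG2 exceeded SUCLA2, the partner for ATP, in 6 of 6 libraries, with a median FPKM ratio of 3.67 and a range of 2.04 to 9.53. SUCLA2 had a log2 fold change of -0.18 (SE 0.48).

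Succinate dehydrogenase oxidises succinate to fumarate and is also complex II of the respiratory chain. SDHA (ENSG00000073578, chr5:218303-257082, plus strand) carries the flavin and the active site. SDHA had 17, 8 and 13 counts in siNC and 6, 6 and 8 counts in siSHMT2, or 6.93, 4.04 and 4.86 FPKM and 3.75, 2.44 and 3.27 FPKM. Every siSHMT2 library was below every siNC library, which held for 1 of the 9 enzymes and for 3.33% of the 20807 genes with an FPKM above 0, while 7.00% of those genes had groups apart in either direction. None of the 6 enzymes tested had groups apart in CPM, against 9.20% of all genes tested. The SDHA means were 5.28 ± 1.49 and 3.15 ± 0.66 FPKM (SD, n = 3), with a two-sided exact permutation p of 0.1, the smallest that 3 libraries against 3 can give. In the fit without the count filter the log2 fold change was -0.77 (95% interval -1.74 to 0.20; unadjusted p = 0.121, adjusted p = 0.843), so the SDHA difference was not called. The gap between the groups was narrow, with the lowest siNC library at 4.04 FPKM and the highest siSHMT2 library at 3.75 FPKM, which both rest on few counts.

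SDHA has genes named as its pseudogenes and an overlapping gene model. SDHAP1 and SDHAP4, both annotated as lncRNAs, had 4 and 13 counts. The longest SDHAP1 transcript was 94.99% identical to SDHA over 479 bases, and the longest SDHAP4 transcript gave no alignment to it. With the counts of both added, SDHA had 20, 10 and 18 counts in siNC and 7, 8 and 12 counts in siSHMT2, and in CPM the siSHMT2 libraries were still below the siNC libraries, with a ratio of means of 0.631 against 0.600 for SDHA alone and 0.630 with SDHAP1 only. A further protein-coding model on the same strand, ENSG00000286001, shares 1796 of the 2126 coding bases of SDHA, or 84.5%, and was listed with 0 counts in every library. The counting program is not given in the sources used here, so whether reads in those shared exons were kept for SDHA cannot be told, and the level of SDHA beside other genes is uncertain.

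The promoters were searched for a motif based on the core recognised by NRF-1, a factor known for nuclear genes of mitochondrial respiration. The motif was set as GCGCA, any base, then GCGC, and may be looser than the core that NRF-1 recognises. The sequences are shown because SDHA and IDH3A were the 2 of 8 enzymes whose RefSeq promoter held this motif. The window ran from 250 bases before to 50 bases after the start site, both strands were read, and OGDH was not among the entries. Of all 35116 RefSeq promoters of the same length, 5.78% held the motif. The sequences are from RefSeq (GRCh38.p14), given on the plus strand 5′ to 3′, with capitals for the motif. SDHA held it 4 times on a regular spacing of 49 bases, at chr5:218144-218173, chr5:218193-218222, chr5:218242-218271 and chr5:218291-218320, and IDH3A held it once, read on the minus strand, at chr15:78149342-78149371.
SDHA, first in the window: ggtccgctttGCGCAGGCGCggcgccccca
SDHA, next: gtggcatggtGCGCAGGCGCgatgtccccc
SDHA, next after that: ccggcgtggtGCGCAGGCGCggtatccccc
SDHA, last in the window: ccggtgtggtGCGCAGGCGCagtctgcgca
IDH3A: cgtggggtggGCGCTTGCGCactgccgctg
The 4 SDHA windows have the same 10 capital letters and differ in the bases around them. The match in IDH3A begins 10 bases before its RefSeq start site. A match describes letters in a window and no binding was measured.

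SDHB (ENSG00000117118, chr1:17018664-17054032, minus strand) is the iron-sulfur subunit of succinate dehydrogenase, which hands the electrons on towards the quinone. SDHB had 5, 6 and 19 counts in siNC and 4, 9 and 4 counts in siSHMT2, or 5.25, 7.80 and 18.3 FPKM and 6.44, 9.44 and 4.22 FPKM. Replicate 3 of siNC lay far above the other 5 libraries, which overlapped with each other. Without that library the difference of the means, siSHMT2 minus siNC, went from -3.76 to 0.171 FPKM. The means of all libraries were 10.5 ± 6.93 and 6.70 ± 2.62 FPKM (SD, n = 3), and the log2 fold change without the filter was -0.65 (95% interval -1.71 to 0.41; adjusted p = 0.843). SDHA was below SDHB per length in 5 of 6 libraries, with a median ratio of 0.55. Of the membrane anchors, SDHC had a log2 fold change of 0.03 (SE 0.44), and SDHD had 17 counts in all and was not tested.

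Fumarase, FH (ENSG00000091483, chr1:241497511-241519799, minus strand), adds water to fumarate to give malate and is a tumour suppressor in hereditary renal cancer. FH had 30, 8 and 12 counts in siNC and 20, 19 and 6 counts in siSHMT2. These correspond to 7.16, 2.36 and 2.63 FPKM and to 7.32, 4.53 and 1.44 FPKM. Replicate 1 was the highest library of both groups at almost the same level, and replicate 3 of siSHMT2 was the lowest. FH therefore varied within both groups, from 1.44 to 7.32 FPKM, while the means were 4.05 ± 2.70 and 4.43 ± 2.94 FPKM (SD, n = 3). Its spread within groups was 7.08 times the variance that counting alone gives (chi-square per degree of freedom). Over all genes tested the median of this ratio was 1.55, and 2.28% had a ratio at least as high as that of FH. The other 8 enzymes had ratios of 0.284 for OGDH to 2.59 for SDHB. The log2 fold change of FH was 0.04 (95% interval -0.84 to 0.92; adjusted p = 1.0), and it ran from -0.43 to 0.74 as each library was left out in turn.

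Malate dehydrogenase, MDH2 (ENSG00000146701, chr7:76048051-76067508, plus strand), returns malate to oxaloacetate and closes the cycle. MDH2 had 23.7, 16.7 and 25.9 FPKM in siNC and 29.4, 19.7 and 22.1 FPKM in siSHMT2. Replicate 2 was the lowest of both groups and the groups overlapped. The means were 22.1 ± 4.76 and 23.7 ± 5.04 FPKM (SD, n = 3), and the log2 fold change of 0.07 had a 95% interval of -0.45 to 0.58 (adjusted p = 0.999). Its cytosolic counterpart MDH1 had a log2 fold change of 0.11 (SE 0.34), and IDH1, the cytosolic counterpart of IDH2, had one of -0.14 (SE 0.37).

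**Figure D3:**
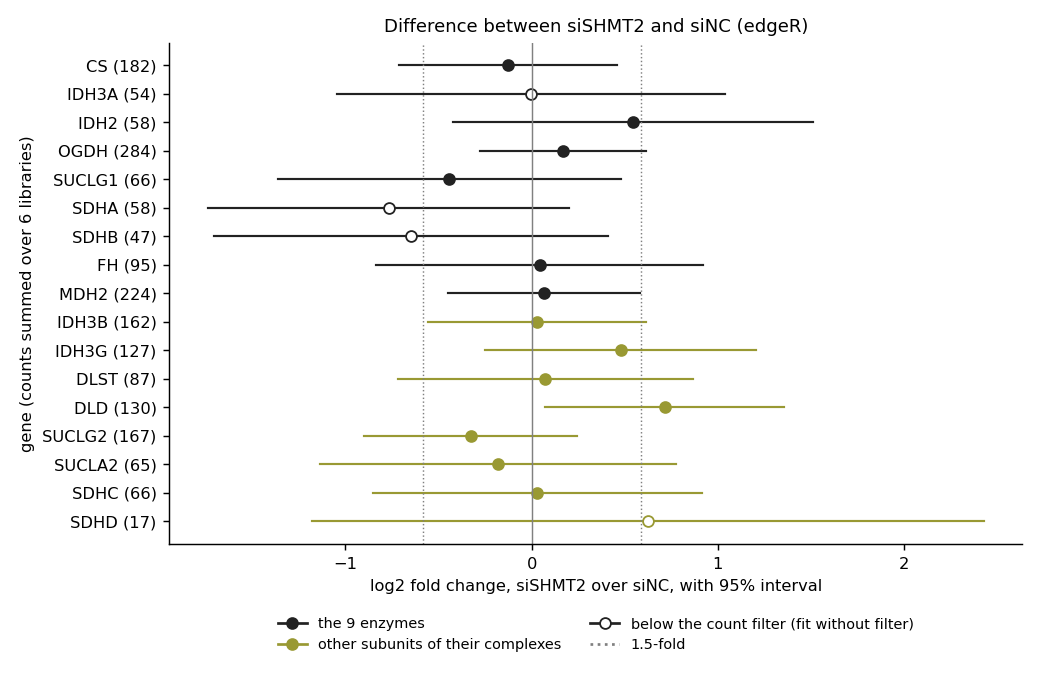
Log2 fold change of siSHMT2 over siNC (horizontal axis) with 95% intervals from edgeR for the 9 enzymes (black) and the other subunits of their complexes (olive), with the counts summed over 6 libraries in brackets; open points are genes below the count filter and dotted lines mark 1.5-fold. The intervals of all 9 enzymes include 0, and that of DLD does not.

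For 8 of the enzymes the difference between the group means in FPKM had an exact permutation p between 0.3 and 1.0 (two-sided), and for SDHA it was 0.1. The intervals set what these libraries could show. The interval of OGDH ended at a log2 fold change of 0.62 and that of SDHA reached -1.74, while a change of 1.5-fold, the size the study's methods ask for, lies at 0.58 on this scale. The 6 enzymes tested had a median SE of 0.36, against 0.31 over all genes tested, and the 9 enzymes had a median of 66 counts over the 6 libraries, against 147 for the genes tested. Among the 6 enzymes tested, the intervals extended past a rise of 1.5-fold for IDH2 and OGDH and past a fall of that size for CS and SUCLG1. For FH the interval extended past both, so such differences lay within the intervals of these enzymes. Only the interval of MDH2 stayed within 1.5-fold in both directions, by a narrow margin for a rise.

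**Figure D4:**
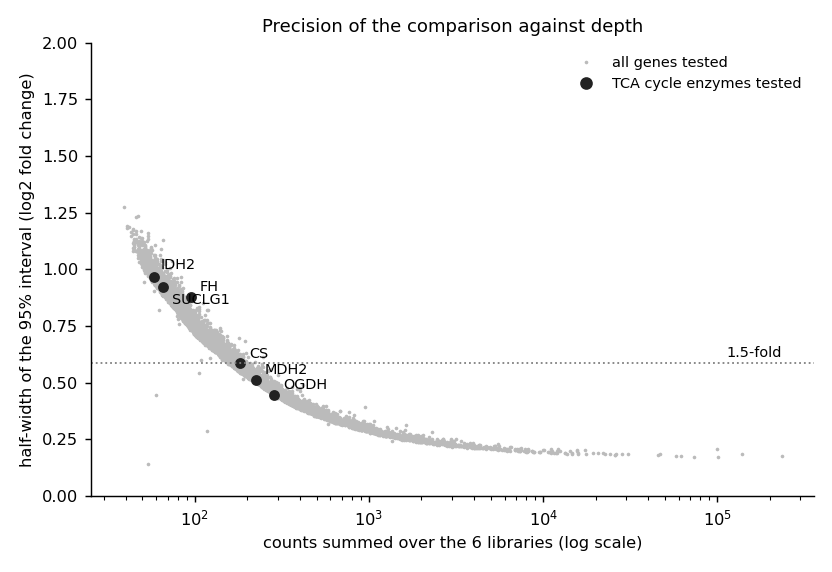
Distance from the log2 fold change to the end of its 95% interval (vertical axis) against the counts summed over 6 libraries (horizontal axis, log scale) for the genes tested (grey) and the 6 tested enzymes (black). IDH2, SUCLG1 and FH lie above the dotted line at 1.5-fold, MDH2 and OGDH below it, and CS on it.

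The order of the levels per length was the same at the top in both groups. Over the 6 libraries MDH2 came first with a mean of 22.9 FPKM, followed by OGDH with 14.8 and CS with 12.9 FPKM. SDHB with 8.58 and SUCLG1 with 8.09 FPKM lay in the middle. IDH2 with 4.71, FH with 4.24 and SDHA with 4.21 FPKM came next, and IDH3A with 2.87 FPKM came last. MDH2, OGDH, CS, FH and IDH3A held the same place in siNC and siSHMT2, whereas SDHB and SUCLG1 changed places IDH2 moved from place 8 in siNC to place 6 in siSHMT2 and SDHA from place 6 to place 8.

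Neighbours in this order were compared within libraries. MDH2 was above OGDH in 6 of 6 libraries by 0.61 ± 0.18 on the log2 FPKM scale (SD over 6 libraries; two-sided exact permutation p = 0.0312, the smallest possible, and 0.188 after Benjamini-Hochberg adjustment over 8 neighbour pairs). Without division by gene length the difference turned to -0.35, with MDH2 below OGDH (exact permutation p = 0.0312). SUCLG1 was above IDH2 in 5 of 6 libraries by 0.82 ± 0.66 (exact permutation p = 0.0625, adjusted 0.188). OGDH and CS, CS and SDHB, SDHB and SUCLG1, IDH2 and FH, FH and SDHA, and SDHA and IDH3A differed by less than the spread of their difference over the libraries. No neighbour pair passed the adjusted threshold.

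Of 50 further genes listed around the cycle, 24 were tested. Of the 24, 0 had an adjusted p under 0.05 and 1, DLD, had an unadjusted p under 0.05, against 0% and 3.84% of all genes tested. Among the 24, 15 had a positive and 9 a negative log2 fold change, with a median of 0.03. The groups were apart in FPKM in 3 of the 24 tested, against 9.20% of all genes tested in CPM. They were apart in 5 of all 50, against 7.00% of all genes with an FPKM above 0. These 5 were DLD, SUCLG2, SLC25A1, SLC25A10 and D2HGDH, of which the last 3 were named after their values were seen. The other cycle subunits (8 of 10 tested) had the highest value in DLD and the lowest in SUCLG2. Among the genes of pyruvate entry (5 of 13 tested) the values ran from -0.64 (SE 0.42) for PDHB to 0.68 (SE 0.46) for PDHA1, which encode the subunits of the same pyruvate dehydrogenase tetramer. Among the genes of anaplerosis and export (8 of 15 tested) they ran from -0.79 (SE 0.46) for the mitochondrial malic enzyme ME2 to 0.33 (SE 0.30) for the aspartate aminotransferase GOT2. All 3 cytosolic counterparts were tested and none passed, and none of the 7 assembly and lipoylation factors or the 2 dehydrogenases of 2-hydroxyglutarate passed the count filter.

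The genes whose pattern over the 6 libraries was most like that of the summed enzymes were RPL5, CARHSP1, CAP1, DIAPH1 and THRAP3. The likeness was the root mean square difference of centred log2 CPM over 6 libraries, which was 0.0223 for RPL5 and 0.0493 for THRAP3, against a median of 0.252 over the 4771 other genes that reached 10 counts in all 6 libraries. The summed enzymes themselves moved little, from -0.18 in replicate 2 of siNC to 0.09 in replicate 3 of siNC.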

How the data were processed

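RNA-seq was measured in 6 libraries of HT-1376 cells. The authors checked reads with FastQC 0.11.9, trimmed with fastp 0.23.4 and aligned to GRCh38 with HISAT2 2.2.1; the submitters' notes also list DESeq2 1.42.1. How reads were counted (program, strand, annotation release) is not given in the sources used here. The authors deposited raw counts per gene without normalization, and FPKM made from those counts, the listed gene length and the library total; 91 genes have no length. Groups came from the labels, and 0 value columns were left unmapped.

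Counts were compared with edgeR 4.0.16 in R 4.3.3 (TMM, filterByExpr, quasi-likelihood test, two-sided, Benjamini-Hochberg adjustment over 7207 genes). Genes below the filter were taken from the fit on all 20836 genes with a count. Single FPKM values were compared by exact permutation tests (scipy 1.17.1). Copies were aligned with blastn 2.17.0. Figures were drawn with matplotlib 3.10.9. The comparison was tested on simulated data, in which the changed genes had more counts than most of these enzymes. The simulation therefore does not show what could be detected for enzymes with few counts. The alternatives were DESeq2 1.42.0, other size factors, other filters, limma 3.58.1 on log2 FPKM (pseudocounts 1 and 0.1), genes without a length left out, CPM without gene length for the order of levels, a replicate block, and leaving out each library; sums with all or with only the aligned gene copies were added after seeing the data.

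The 9 enzymes and the gene lists were chosen with earlier results of these data known. Other genes were named by a rule: those of the lists with an unadjusted p under 0.05 or the highest or lowest fold change of a list, other subunits of the enzymes' complexes, SHMT2, copies and overlapping genes with counts, and the 5 most alike genes. A library had 533689 to 890574 counts, and the median count of the genes tested was 25, so precision is low for these enzymes. The paper calls the libraries biological replicates and the labels do not say how they were grown, so p-values measure the spread between these libraries. Libraries with the same replicate number did not deviate together (correlations of -0.0155, 0.0485 and -0.0119), and the numbers were not taken as pairs.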

Additional observations from a re-analysis of the deposited data

How the results depend on the processing

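The count of enzymes at an adjusted or an unadjusted p under 0.05 was 0 in each of the 15 alternatives. Not every alternative covered all the enzymes: 9 entered without a filter on low counts, and 3 with at least 10 counts required in every library. With the replicate block 0 genes had an adjusted p under 0.05 and 304 an unadjusted one, and the block changed no call for the enzymes. Leaving out each library in turn gave 0 to 1 genes at an adjusted p under 0.05, the 1 being without replicate 3 of siSHMT2. The number with an unadjusted p under 0.05 was 277, against 117 in DESeq2 and 699 without a filter on low counts, where 20836 genes were tested, and it ran from 292 to 412 with a library left out. Log2 fold changes near 0 turned sign with a library left out: CS ran from -0.36 to 0.091, IDH3A from -0.21 to 0.32 in the 4 such fits it entered, FH from -0.43 to 0.74 and MDH2 from -0.086 to 0.18. IDH2 (0.27 to 0.89), OGDH (0.11 to 0.23), SUCLG1 (-0.67 to -0.15) and SDHA (-0.87 to -0.62, 4 fits) kept their direction, and SDHB could be fitted only without the filter, with a mean difference of -6.37 to 0.171 FPKM as a library was left out (0.171 without replicate 3 of siNC). Without division by gene length the level order turned for MDH2 over OGDH (-0.35) and IDH2 over FH (-0.67). For FH over SDHA the mean log2 difference went from -0.16 to 0.61, while FH had the slightly higher mean FPKM. The counts per enzyme, 3 to 56 in a library, limit the precision of these values, and the spread of FH went beyond counting error.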

Other observations

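D2HGDH, the mitochondrial enzyme that removes D-2-hydroxyglutarate by turning it into the 2-oxoglutarate used by OGDH, was named after its values were seen. It had 24 counts and did not pass the count filter. It had 0.806, 0 and 0.494 FPKM in the siNC libraries and 2.47, 1.34 and 2.16 FPKM in the siSHMT2 libraries. All siSHMT2 libraries were above all siNC libraries, with a log2 fold change of 2.01 (95% interval 0.43 to 3.59) in the edgeR fit without the filter, an unadjusted p of 0.0128 and an adjusted p of 0.843, so it was not called.

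The citrate carrier SLC25A1, which exports citrate made by CS to the cytosol, was also named after its values were seen. It had 23.8 ± 2.72 FPKM in siNC and 19.4 ± 1.62 FPKM in siSHMT2 (SD, n = 3) and its groups did not overlap. Its log2 fold change was -0.27 (SE 0.29), with an adjusted p of 0.999 in edgeR. The dicarboxylate carrier SLC25A10, named in the same way, had 13 counts, with 2.24 ± 0.757 FPKM in siNC and 0.74 ± 0.193 FPKM in siSHMT2 (SD, n = 3) and groups apart, and it did not pass the count filter. Groups were apart in FPKM in 7.00% of all genes with an FPKM above 0.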
